A study of Mus musculus with 6 samples.

Results

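The fibroblast growth factor (FGF) and ERK signalling genes described here are Fgf4, Fgf5, Fgfr1, Fgfr2, Spry2, Spry4, Dusp6, Etv4, Etv5 and Otx2. They were found by taking every non-control probe that carries the symbol of one of these genes, which gave 15 of the 39429 gene probes on the array and covered all 10 genes, out of 30458 distinct gene names. Fgfr1 had 3 probes, Fgfr2, Etv4 and Otx2 had 2 each, and the other 6 genes had 1 each. RNA came from mouse embryonic stem (ES) cells, which are pluripotent cells of the early embryo kept in culture. The series holds 3 arrays of wild type cells and 3 of cells with a knockout of Zscan5b, a zinc finger gene with a SCAN domain. Cells of both genotypes were held in the undifferentiated state with leukemia inhibitory factor (LIF) at 1000 IU/ml, on fibroblasts from mouse embryos that mitomycin C at 10 ug/ml had stopped from dividing. The labels call the 3 samples of a genotype biological replicates. Where the deletion lies, how it was made, whether the knockout samples came from separate clones, and the strain are not given in the sources used here.

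FGF signals reach the cell through receptor tyrosine kinases, which pass them through RAS, RAF and MEK to the kinase ERK. In ES cells the main autocrine ligand is Fgf4, and ERK activity is known to prepare the cells to leave the naive state, while LIF signalling holds them in it. Active ERK switches on a set of target genes that includes the ETS transcription factors Etv4 and Etv5 and the feedback inhibitors Spry2, Spry4 and Dusp6, so these are widely used as readouts of the pathway. Fgf5 and Otx2 mark the formative or primed state that follows.

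None of the 15 probes passed the test between the genotypes. Groups were compared with limma, with Benjamini-Hochberg adjustment over all 26647 tested probes and a threshold of 0.05, and the adjusted p of the 15 probes lay between 0.134 and 0.953. Over all tested probes 124 passed (0.465%), 33 of them higher in the knockout (0.124%) and 91 lower (0.342%), so 0 of 15 is close to what that share gives. At an unadjusted p below 0.05 there were 2 of the 15 probes, 1 in each direction, against 21.9% of all probes. In 2 of the 15 probes, again 1 in each direction, the 3 knockout arrays did not overlap the 3 wild type arrays, against 29.1% of all probes. With the brightest probe of each gene, 8 of 10 genes read lower in the knockout, beside 11015 of all 20598 tested genes. The median log2 fold change (knockout minus wild type) of the 10 genes was -0.17, beside -0.03 over all 20598 genes. The widest differences lay among the wild type arrays, where replicate 2 read low for most of the ERK target genes. Values below are log2 signal relative to the 75th percentile of the same array, and they compare arrays for 1 probe, not probes with each other. RNA was taken from whole cultures, so fewer cells that express a gene and less of its RNA per cell cannot be told apart.

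The arrays were alike in brightness, with a 75th percentile of signal from 852.4 to 1028, and 25360 to 27737 gene probes per array were well above background. All 15 probes described here were well above background on all 6 arrays, and no probe was saturated. For Zscan5b, wild type replicates 1, 2 and 3 gave -3.66, -4.03 and -3.12, against -4.47, -5.17 and -5.13 on the knockout arrays, which is a log2 fold change of -1.32 ± 0.29 (SE, with 3 arrays per group; limma adjusted p = 0.107). The groups did not overlap for Zscan5b, but since the deletion is not placed by the labels, this probe may lie outside it and then checks nothing. Replicates differed more in wild type than in the knockout, with an SD of the log2 difference between arrays of 0.513 to 0.639 against 0.331 to 0.399. Over the replicates of a probe the median range was 0.41 among wild type arrays, against 0.24 among knockout arrays. Wild type and knockout arrays sat on separate slides, each scanned at its own time, so slide and genotype cannot be told apart in any difference given here.

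**Figure D1:**
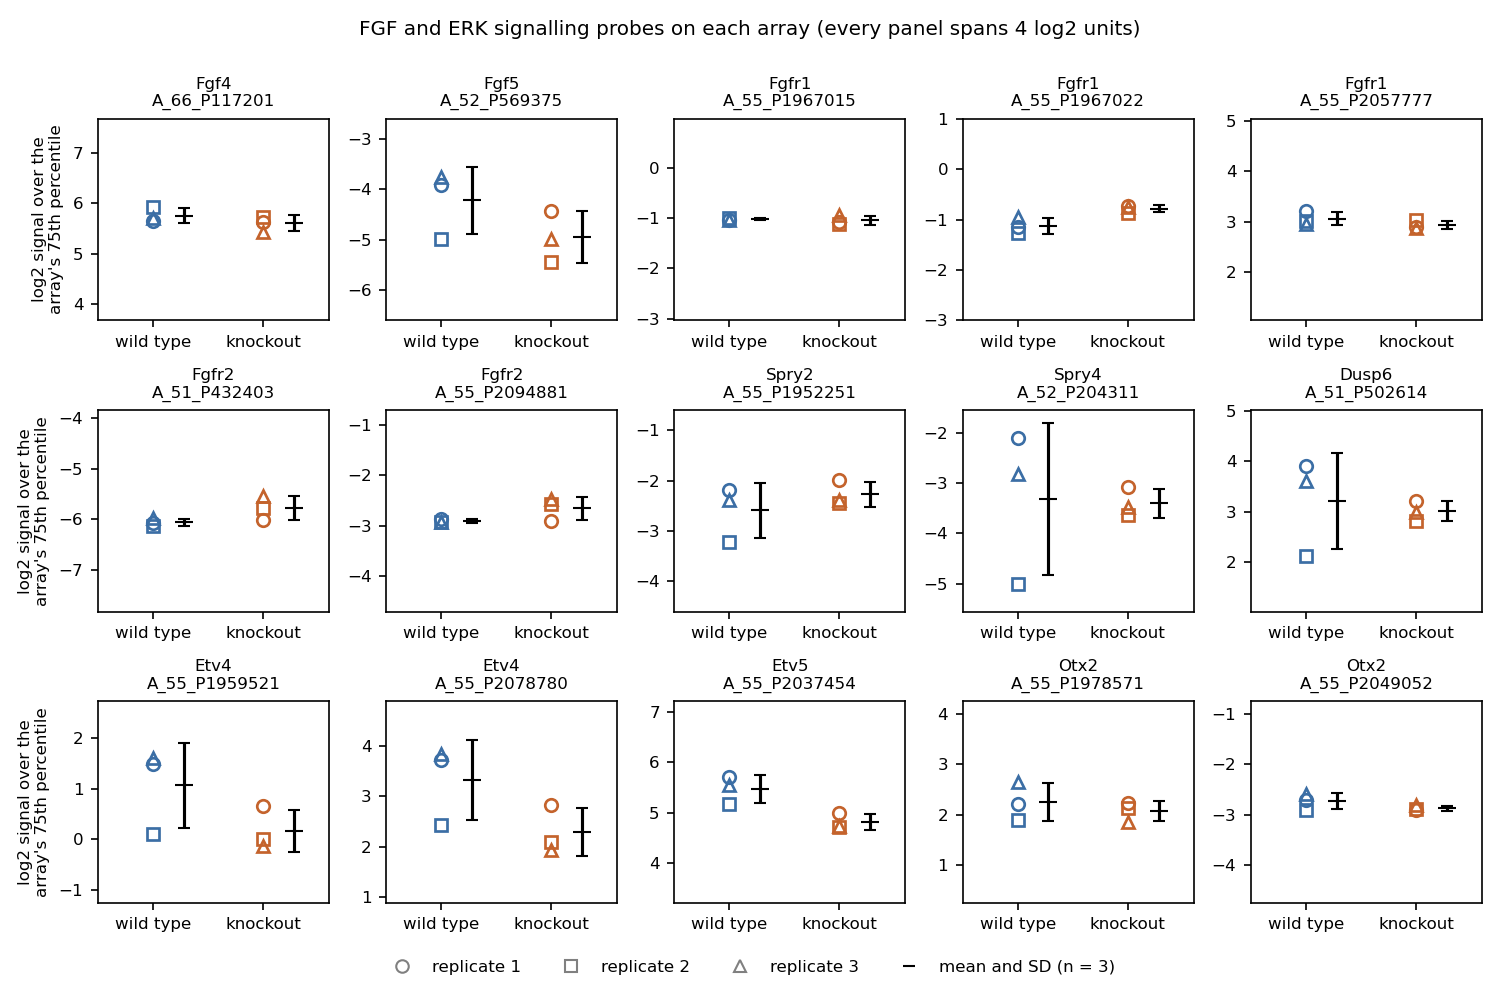
Log2 signal over the array's 75th percentile for the 15 probes on each array, with replicates marked by shape and the mean ± SD (n = 3) beside them; every panel spans 4 log2 units. For Spry4, Dusp6, Spry2 and both Etv4 probes, wild type replicate 2 lies well below the other wild type arrays. In the Fgfr1, Fgfr2 and Fgf4 panels the wild type arrays lie close together.

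The ligands come first in the pathway. Fgf4, which ES cells secrete and which acts back on them, was measured by a probe on mm9 chromosome 7 (152051089 to 152051148). For Fgf4, wild type replicates 1, 2 and 3 gave 5.65, 5.92 and 5.71, against 5.63, 5.74 and 5.44 for knockout replicates 1, 2 and 3, the order kept for all genes below. The groups overlapped and every array lay within a narrow band. Fgf4 was the only gene of the 10 whose reading in wild type replicate 2 was the highest of all arrays. Its log2 fold change was -0.16 ± 0.13 (SE, 95% interval -0.47 to 0.16), with a limma adjusted p of 0.49. Fgf5, the ligand that marks the formative state, is dim here, with spot signals from 20.6 to 69.5, yet above background on each array (chromosome 5, 98705980 to 98706039). Fgf5 gave -3.91, -4.99 and -3.75 on the wild type arrays, against -4.43, -5.45 and -4.98 on the knockout arrays. Replicate 2 was the low array in both genotypes, and the groups overlapped. The Fgf5 log2 fold change was -0.74 ± 0.40 (95% interval -1.71 to 0.23, adjusted p = 0.319 by limma).

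The receptors differed little between the wild type arrays. Fgfr1, the main FGF receptor of ES cells, had 3 probes on chromosome 8 whose starts lie 748 to 1759 bases apart, and they differed in direction. The brightest (26685072 to 26685131) gave 3.21, 3.02 and 2.95 on the wild type arrays, against 2.90, 3.03 and 2.87 on the knockout arrays, a log2 fold change of -0.13 ± 0.11. The probe at 26685820 to 26685879 spanned only 0.04 log2 units over the wild type arrays and gave -0.02 ± 0.10. The probe at 26684061 to 26684120 gave -1.15, -1.27 and -0.95 on the wild type arrays, against -0.73, -0.87 and -0.76 on the knockout arrays. Here the knockout group lay above the wild type group without overlap, and the log2 fold change was 0.33 ± 0.12 (95% interval 0.04 to 0.62), with an unadjusted limma p of 0.0306 and an adjusted p of 0.196. The scanner files assign all 3 probes to the same Fgfr1 transcript. Fgfr2, the receptor that primitive endoderm cells use, was measured by 2 probes on chromosome 7 that share 42 bases, so they are not independent. Its brighter probe (137307473 to 137307532) gave -2.87, -2.92 and -2.93 in wild type cells, against -2.91, -2.58 and -2.48 in knockout cells, a log2 fold change of 0.25 ± 0.14 (adjusted p = 0.321 by limma). Knockout replicate 1 lay among the wild type arrays, and replicates 2 and 3 above them. The other Fgfr2 probe is printed in 10 spots per array, and it gave the same direction, 0.29 ± 0.14. After outlier spots were left out, 8 to 10 spots remained on an array, of which 6 to 8 were well above background, and the SD between spots of 1 array was 0.17 to 0.34 on the log2 scale.

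Among the wild type arrays, the feedback inhibitors Spry4 and Dusp6 had the widest ranges of the 10 genes. Spry4, which blocks RAS and RAF activation, was measured by a probe on chromosome 18 (38745923 to 38745982). Spry4 gave -2.10, -5.0 and -2.83 on the wild type arrays, against -3.08, -3.63 and -3.48 on the knockout arrays. The knockout values sat inside the wild type range, between the low replicate 2 and the other 2 arrays. That range was 2.9 log2 units, or 7.48-fold, against 0.55 in the knockout, and only 0.774% of all tested probes had a wild type range as wide. As spot signal, Spry4 gave 199, 26.6 and 131 in wild type cells, against 122, 72.8 and 80.2 in knockout cells. The log2 fold change was accordingly -0.08 ± 0.72, with a 95% interval from -1.82 to 1.65 (adjusted p = 0.953 by limma), so the 6 arrays leave room for a change of over 1 log2 unit either way. Dusp6, the cytoplasmic phosphatase that switches ERK off, was bright on every array (chromosome 10, 98729985 to 98730044). Dusp6 gave 3.91, 2.12 and 3.61 on the wild type arrays, against 3.21, 2.81 and 3.0 on the knockout arrays, with the knockout again inside the wild type range. Its spot signals of 12800, 3700 and 11400 in wild type, a 3.46-fold range, show that the drop in replicate 2 was not limited to dim probes. The Dusp6 log2 fold change was -0.21 ± 0.46 (95% interval -1.32 to 0.91, adjusted p = 0.809 by limma). Spry2, a close relative of Spry4 (chromosome 14, 106291845 to 106291904), gave -2.18, -3.21 and -2.38 in wild type cells, against -1.99, -2.44 and -2.39 in knockout cells. Wild type replicate 2 was the lowest of all arrays and the other 5 lay close together. Spry2 had a log2 fold change of 0.32 ± 0.29 (95% interval -0.39 to 1.02), which was 0.01 without that array.

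By the brightest probe of each gene, the ETS factors Etv5 and Etv4 had the smallest p between the genotypes. Etv5, a transcription factor induced by FGF and ERK (chromosome 16, 22381387 to 22381446), gave 5.70, 5.16 and 5.54 on the wild type arrays, against 5.0, 4.72 and 4.73 on the knockout arrays. All 3 knockout arrays lay below all 3 wild type arrays, as they did for 15.4% of all tested probes. Etv5 was 1.57-fold lower, with a log2 fold change of -0.65 ± 0.17 (95% interval -1.07 to -0.23) and an unadjusted p of 0.00859, but its limma adjusted p was 0.134. Etv4, its close relative, had 2 probes on chromosome 11 with starts 265 bases apart and no shared bases. The brighter (101631057 to 101631116) gave 3.73, 2.43 and 3.84 in wild type cells, against 2.83, 2.09 and 1.94 in knockout cells. The other (101631322 to 101631381) gave 1.49, 0.11 and 1.62 against 0.65, 0 and -0.14. The 2 probes thus gave the same picture: wild type replicates 1 and 3 high, wild type replicate 2 and knockout replicates 2 and 3 low, and knockout replicate 1 in between. The Etv4 log2 fold changes were -1.05 ± 0.43 (95% interval -2.10 to 0, adjusted p = 0.229 by limma) and -0.90 ± 0.44 (adjusted p = 0.281 by limma).

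Otx2, the homeobox factor that drives the step from naive to formative pluripotency, closes the set. The bright Otx2 probe (chromosome 14, 49277855 to 49277914) gave 2.21, 1.89 and 2.64 on the wild type arrays, against 2.23, 2.14 and 1.86 on the knockout arrays. The groups overlapped throughout, with a log2 fold change of -0.17 ± 0.22 (95% interval -0.70 to 0.35, adjusted p = 0.648 by limma). The other probe lies 7097 bases away (49284952 to 49285011) and is assigned to a single Ensembl transcript. Its 60 bases were found unchanged in RefSeq's promoter table, on the coding strand from 227 to 168 bases before 1 of the 4 annotated Otx2 starts, with 2 other starts farther upstream. A transcript from that start or from the start downstream of it would not contain these bases. This probe gave -2.71, -2.90 and -2.59 in wild type cells, against -2.90, -2.89 and -2.81 in knockout cells, a log2 fold change of -0.14 ± 0.11 (adjusted p = 0.497 by limma).

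Set against the mean of the other 2 wild type arrays, replicate 2 read lower by 2.54 log2 units for Spry4, a drop that only 0.169% of all tested probes matched or passed. For Dusp6 the value was -1.64 (0.808% of probes were as low), for the brighter Etv4 probe -1.36 (1.48%) and for the other -1.44 (1.26%). Fgf5 stood at -1.16 (2.20%) and Spry2 at -0.93 (3.52%), while Otx2 at -0.54 (9.67%) and Etv5 at -0.46 (11.9%) were less far out. Of the 10 genes, 9 read lower in wild type replicate 2 than the mean of the other wild type arrays, with a median of -0.74. The same was true of 45.8% of all tested probes, whose median was 0.03. The receptors took little part: Fgfr1 stood at -0.06 and Fgfr2 at -0.03, and the ligand Fgf4 at 0.24. In knockout replicate 3 also 9 of 10 genes read lower than the mean of the other knockout arrays (53.7% of all tested probes did), but with a median of only -0.13. With each gene centred on its mean over the 6 arrays, the median of the 10 genes came to 0.41, -0.33 and 0.44 on the wild type arrays, against 0.05, -0.15 and -0.19 on the knockout arrays. The 2 high wild type arrays therefore lay above all knockout arrays and the low wild type array below them.

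**Figure D2:**
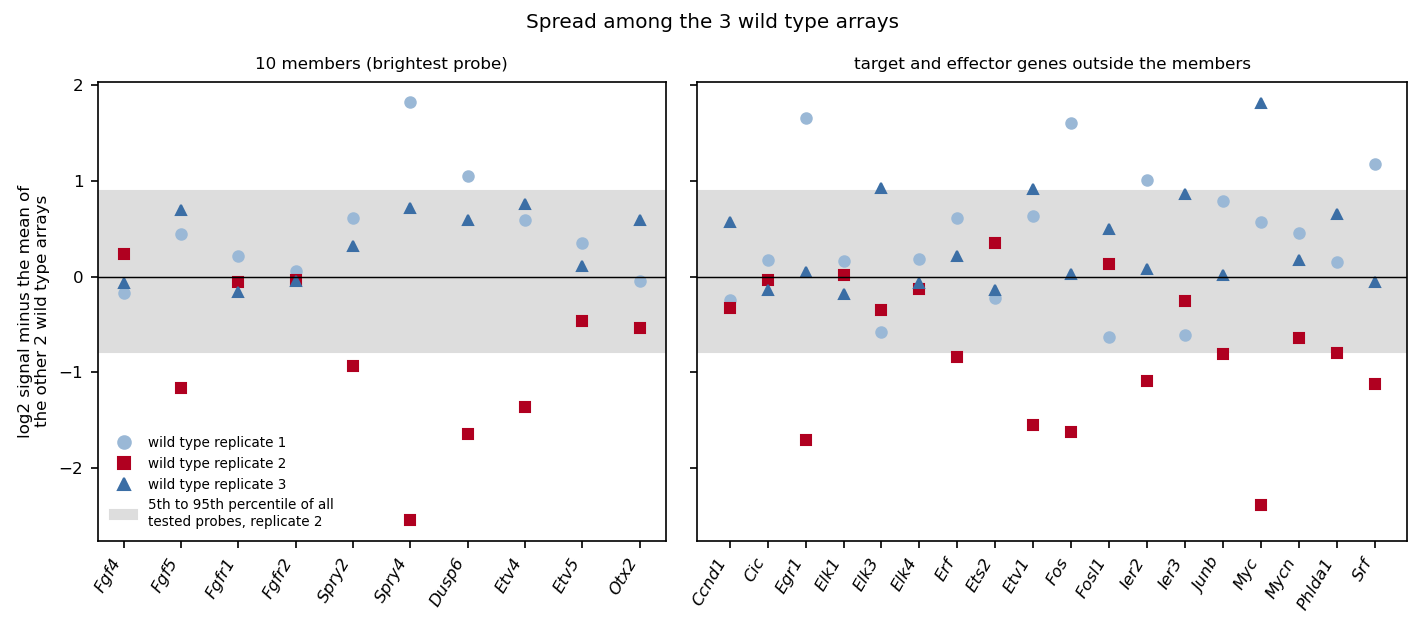
Each wild type array minus the mean of the other 2 wild type arrays, in log2 units, for the brightest probe of the 10 genes (left) and of target and effector genes outside them (right); the grey band is the 5th to 95th percentile of all tested probes for replicate 2. Replicate 2 (red squares) falls below the band for Fgf5, Spry2, Spry4, Dusp6 and Etv4 on the left and for Egr1, Etv1, Fos, Myc, Srf and others on the right.

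Other genes of the pathway were taken from a list of 98 genes by role, of which 90 were tested. The readings in wild type replicate 2 were counted by role. Among 17 ERK target and effector genes with a value on every array, 14 read lower in that array than the mean of the other wild type arrays, with a median of -0.80. The largest were Myc at -2.38, the immediate early genes Egr1 at -1.71 and Fos at -1.62, the ETS factor Etv1 at -1.55 and Srf, partner of the ternary complex factors, at -1.12. Among 14 further inhibitors 10 read lower, with a median of -0.23, among them the sprouty-related Spred1 at -0.99 and the nuclear ERK phosphatase Dusp5, which was not well above background in wild type replicate 2 but was on the other 5 arrays. Ligands (6 of 16 lower), receptors and coreceptors (6 of 17), adaptors (5 of 11) and the kinases from RAS to ERK (7 of 14) are given beside the 45.8% of all probes. The largest readings the other way were the ligands Fgf7 at 2.86 and Fgf10 at 2.17. Next came the coreceptor Sdc4 at 1.34, Flrt1 at 1.24 and the adaptor Frs3 at 1.2. The summed signal of the feeder fibroblast markers, given below, was also highest in wild type replicate 2. The part of fibroblasts in these readings was not tested. The genes named in this paragraph were chosen after their values were seen, and the difference between the roles was not tested.

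Promoters of Fgf5, Dusp6, Spry2 and Etv5, which read low in wild type replicate 2, are given below. Otx2 read lower there (-0.54) than Etv5 (-0.46) and was searched, but its promoters are not printed. Spry4 and Etv4, which also read low, had no promoter searched. From RefSeq's table for GRCm38.p6, promoters of 7 of the 10 genes were searched: Fgf4, Fgf5, Fgfr2, Spry2, Dusp6, Etv5 and Otx2. The 250 bases before the start were used. Both strands were searched for the ETS site CCGGAA, which 12.0% of the 32851 promoters in the table hold. Also searched for were the cyclic AMP response element TGACGTCA (1.55%), the CArG box of serum response factor (1.47%) and the GC box GGGCGG of Sp1 (32.7%). These motifs do not contain each other. The shorter ETS core GGAA was not searched for. Capitals mark CCGGAA or a GC box on either strand.
Fgf5: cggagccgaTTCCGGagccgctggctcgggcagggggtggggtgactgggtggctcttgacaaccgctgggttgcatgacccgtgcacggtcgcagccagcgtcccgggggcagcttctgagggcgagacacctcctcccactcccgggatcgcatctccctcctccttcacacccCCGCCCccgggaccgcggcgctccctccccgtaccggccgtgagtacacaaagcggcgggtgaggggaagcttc
Dusp6: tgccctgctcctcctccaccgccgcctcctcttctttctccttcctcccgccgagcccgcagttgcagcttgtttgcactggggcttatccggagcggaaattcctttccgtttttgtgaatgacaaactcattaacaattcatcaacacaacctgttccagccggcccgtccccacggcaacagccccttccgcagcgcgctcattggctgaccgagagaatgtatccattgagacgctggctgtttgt
Spry2: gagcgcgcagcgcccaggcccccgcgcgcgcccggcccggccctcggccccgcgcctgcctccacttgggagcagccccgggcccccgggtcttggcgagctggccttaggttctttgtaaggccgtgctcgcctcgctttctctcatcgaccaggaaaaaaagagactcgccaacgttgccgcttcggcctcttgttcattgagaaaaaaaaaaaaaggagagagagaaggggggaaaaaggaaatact
Etv5: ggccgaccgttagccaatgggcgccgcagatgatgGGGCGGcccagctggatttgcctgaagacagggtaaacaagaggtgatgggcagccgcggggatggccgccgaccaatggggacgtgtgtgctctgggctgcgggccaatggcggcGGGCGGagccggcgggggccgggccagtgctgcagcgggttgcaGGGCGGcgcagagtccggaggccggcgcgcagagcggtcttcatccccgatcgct
The windows are chr5:98253934-98254183 on the plus strand for Fgf5, chr10:99262981-99263230 on the plus strand for Dusp6, chr14:105896820-105897069 on the minus strand for Spry2 and chr16:22439571-22439820 on the minus strand for Etv5, each written 5′ to 3′ along the gene. Fgf5 held the only CCGGAA among the 7 genes, on the opposite strand with its first base 241 bases before the start. It also held 1 GC box 74 bases before the start. Etv5 held 3 GC boxes, at 215, 99 and 55 bases before the start, and its other annotated start held no match. Dusp6 and Spry2, which both read low in wild type replicate 2, held none of these letters in the window, and neither did Fgfr2 or Otx2. Fgf4, which did not read low there, held 2 GC boxes, at 214 and 188 bases before the start.

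Between the genotypes, 0 of the 90 tested genes of the wider list passed over all probes, and the median log2 fold change was 0.07. At an unadjusted limma p below 0.05, 13 of the 90 read higher and 4 lower, beside 1989 and 2488 of all 20598 tested genes. Among receptors and coreceptors (17 tested, median 0.08), Hs6st1, which sulfates the heparan chains that FGFs bind, came closest. Hs6st1 gave -0.57, -0.81 and -0.71 on the wild type arrays, against 0.07, 0.07 and 0.23 on the knockout arrays, a log2 fold change of 0.82 ± 0.11 with a limma adjusted p of 0.0534. The heparan sulfate proteoglycan Gpc4 read the other way, at -0.58 ± 0.13, and neither gene's groups overlapped. Among target and effector genes (18 tested, median 0.03), the AP-1 subunit Junb stood at 1.53 ± 0.28 (adjusted p = 0.0801 by limma) and the cell cycle gene Ccnd1 at -0.74 ± 0.19. Fos, chosen after its values were seen, gave 3.40, 1.26 and 2.36 in wild type cells, against 3.95, 4.32 and 4.34 in knockout cells, a log2 fold change of 1.86 ± 0.51 (adjusted p = 0.141 by limma). For Fos, as for Etv4, wild type replicate 2 was the low wild type array, but the knockout arrays lay above wild type for Fos and toward the low wild type array for Etv4. Among inhibitors (14 tested, median 0.15), the phosphatase Dusp1 stood at 0.98 ± 0.25 and the ubiquitin ligase Cbl at 0.29 ± 0.13. Ligands (16 tested, median 0.10) included Fgf3 at 0.81 ± 0.26, above background on 3 arrays only, and Fgf18 at 0.35 ± 0.12. The adaptors Crkl (0.44 ± 0.14) and Frs3 (0.87 ± 0.35) and the kinase Map2k1 (0.34 ± 0.09) read higher and the GTPase Nras lower (-0.28 ± 0.12), and none of these passed.

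Without wild type replicate 2, 3 of the 15 probes passed, all lower in the knockout and all in ETS factors. This array is singled out because most of the 10 genes read low in it. Leaving out a low wild type array raises the wild type mean and narrows its spread. The lower knockout readings in this fit therefore follow in part from that choice and are no independent support. The brighter Etv4 probe stood at -1.50 ± 0.28 (SE, 2 wild type against 3 knockout arrays), or 2.82-fold lower, with a limma adjusted p of 0.0429, and the other at -1.38 ± 0.26 with an adjusted p of 0.0421. Etv5 stood at -0.81 ± 0.14, with an adjusted p of 0.0387. In that fit 9.60% of all tested probes passed, and 4.31% were lower, so calls were far more frequent everywhere. Dusp6 stood at -0.75 ± 0.17 (adjusted p = 0.0528), Fgf5 at -1.12 ± 0.30 (0.0735) and Spry4 at -0.93 ± 0.27 (0.0860), and none of them passed. The median of the 10 genes was -0.55. Of the wider list 9 of 90 genes passed: Frs3 (1.27), Junb (1.26), Hs6st1 (0.76), Fgfr3 (0.67) and Fgf13 (0.61) were higher, and Myc (-2.19), Etv1 (-1.86), Spred1 (-0.93) and Erf (-0.68), a repressor that ERK exports from the nucleus, were lower. Without wild type replicate 1, by contrast, the log2 fold change of Spry4 was 0.52 and that of Dusp6 0.14, and none of the 15 probes passed (2.40% of all probes did). The sign for these 2 genes thus depended on which array was left out. Where arrays were weighted by their consistency, wild type replicate 2 received the lowest weight, 0.301, and knockout replicate 2 the highest, 4.19. The other weights ran from 0.717 to 1.33, so that fit leans on knockout replicate 2. Of the 15 probes only Etv5 passed (-0.78 ± 0.14, adjusted p = 0.0486 by limma), beside 3.15% of all probes.

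**Figure D3:**
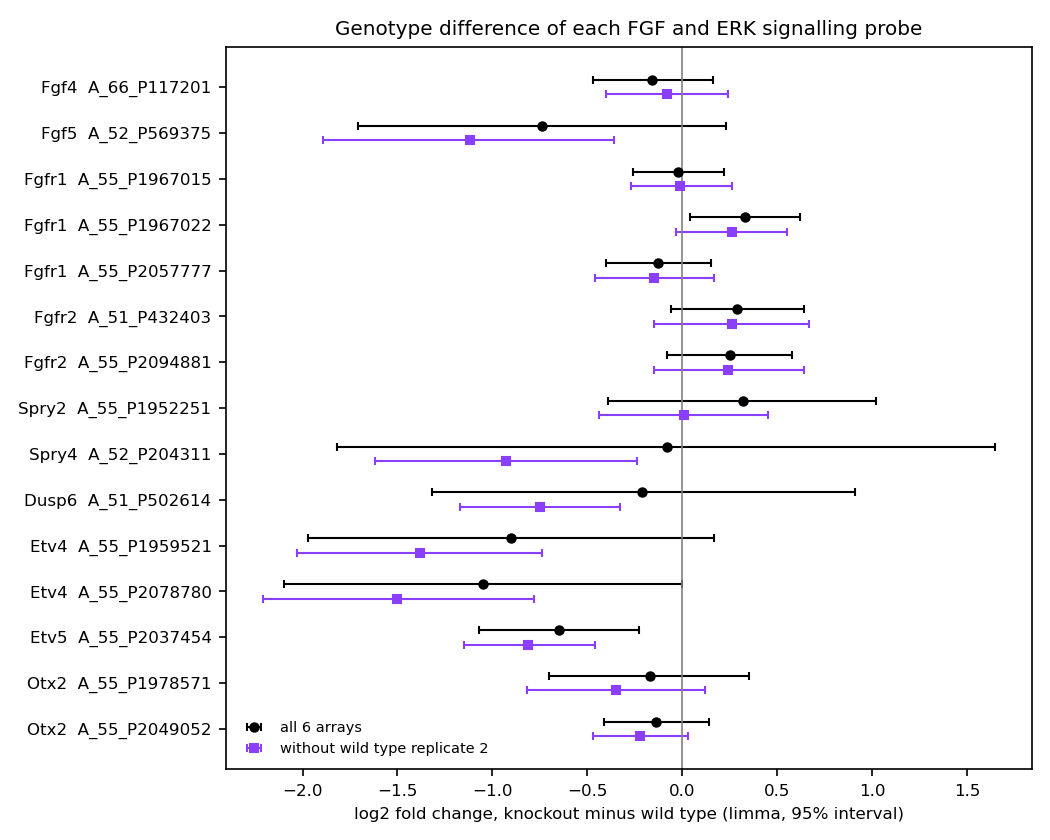
Log2 fold change, knockout minus wild type, of each of the 15 probes with its 95% interval from limma, over all 6 arrays (black) and without wild type replicate 2 (purple). Over all arrays the intervals of Spry4 and Dusp6 are wide and span 0; without replicate 2 those of Spry4, Dusp6, Fgf5, Etv4 and Etv5 lie below 0, while the Fgf4, Fgfr1, Fgfr2 and Spry2 values move little or toward 0.

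Markers of the cells in the cultures were compared on the same arrays. All 8 ES cell markers were above background on every array. Their summed signal, relative to the 75th percentile, ran from 391 to 441 in wild type cells, against 405 to 427 in knockout cells. Such a sum is weighted toward the brightest markers. With each marker centred on its mean over the 6 arrays (log2), the 8 averaged 0.03, 0.03 and -0.1 on the wild type arrays. On the knockout arrays they averaged -0.04, 0.06 and 0.01. Pou5f1, the central pluripotency factor, had a log2 fold change of -0.47 ± 0.10 and Sox2, its partner, 0.09 ± 0.17. Nanog, chosen after its values were seen, stood at 0.66 ± 0.22. Of the 8 markers 5 read higher and 3 lower in the knockout (median 0.05), and 0 passed, with 1 in each direction at an unadjusted limma p below 0.05. The 20 feeder fibroblast markers were also all above background. Their sums were 194, 337 and 278 on the wild type arrays, against 198, 230 and 185 on the knockout arrays. Centred in the same way, these markers averaged -0.62, 1.07 and 0.81 on the wild type arrays. On the knockout arrays they averaged -0.63, -0.16 and -0.48. Of the 20, 19 read lower in the knockout, beside 11015 of all 20598 tested genes, and 0 passed. Their median was -0.85, with the collagen genes Col1a1 at -1.18 ± 0.44 and Col1a2 at -0.85 ± 0.49. The fibroblast sum was thus highest in wild type replicate 2 (337), followed by wild type replicate 3 (278). The median of the 10 FGF and ERK genes, centred as above, was 0.41, -0.33 and 0.44 on the wild type arrays, against 0.05, -0.15 and -0.19 on the knockout arrays. The part of fibroblasts in the readings of Etv4, Etv5 and the other genes was not tested.

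Endoderm markers bear on Fgfr2, which that lineage uses. All 6 were tested, 4 were above background on all 6 arrays, and 5 had a value on every array, with summed signals of 0.216 to 0.356 in wild type cells, against 0.320 to 0.413 in knockout cells. The marker without a value on wild type replicate 1 was Dab2, and with it the sums were 0.697 and 0.531 for wild type replicates 2 and 3, against 0.465, 0.572 and 0.513 on the knockout arrays, so the order of the groups depends on whether Dab2 is counted. The markers differed in direction, 4 higher and 2 lower in the knockout, and 0 passed, with 3 higher and 2 lower at an unadjusted limma p below 0.05. Gata4 stood at 1.37 ± 0.38 and Gata6 at 0.33 ± 0.27, while Sox7 (-1.25 ± 0.22) and Dab2 (-1.22 ± 0.19), chosen after their values were seen, read lower on all knockout arrays than on any wild type array with a value. Of the trophoblast markers Cdx2, Elf5 and Hand1 and of the mesoderm markers Mixl1 and Mesp1 were too dim to be tested, whereas 4 of 4 neuroectoderm markers were tested. The summed signals were 0.225 to 0.747 and 0.579 to 0.801 for the 2 trophoblast markers tested, in wild type and in the knockout, 0.217 to 0.425 and 0.488 to 0.563 for the 2 mesoderm markers, and 1.13 to 1.64 and 1.67 to 2.15 for the neuroectoderm markers. In all of these the part of such cells in the FGF and ERK readings was not tested.

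**Figure D4:**
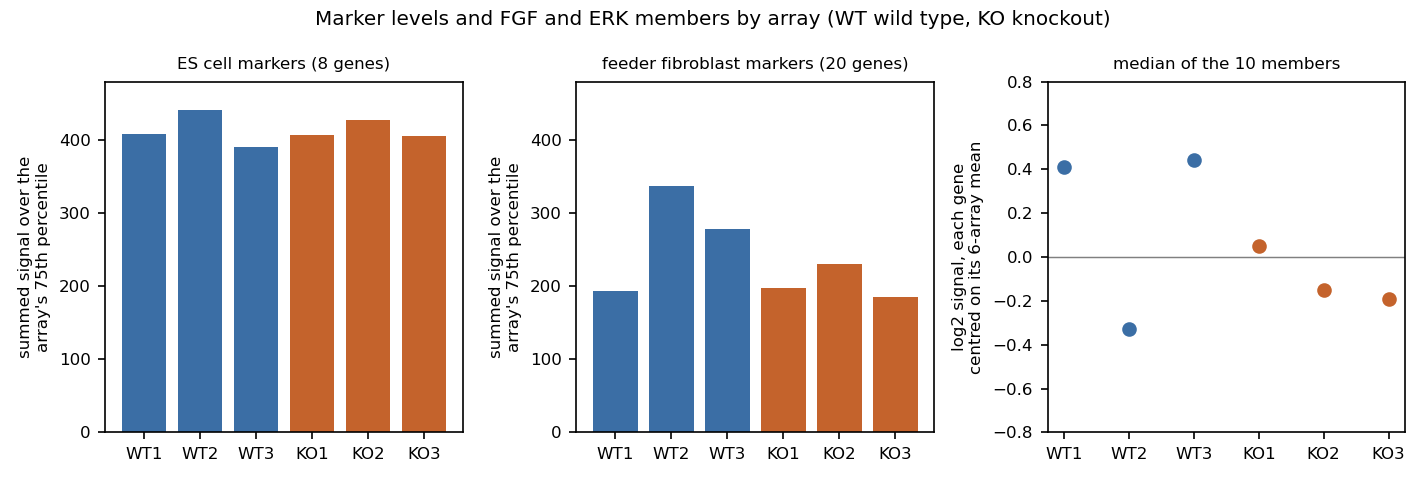
Summed signal of 8 ES cell markers and of 20 feeder fibroblast markers, relative to the array's 75th percentile, and the median of the 10 FGF and ERK genes (log2, each gene centred on its 6-array mean), for wild type (blue) and knockout (orange) arrays. ES cell sums stay between 391 and 441. Fibroblast sums are 194, 337 and 278 in wild type replicates 1, 2 and 3, and the FGF and ERK medians there are 0.41, -0.33 and 0.44.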

How the data were processed

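Per the labels, Cy3-labelled total RNA of 6 cultures was hybridised to 1-colour Agilent arrays. Each array's deposited scanner file gives intensity per spot, not log-transformed, background-subtracted and detrended with Feature Extraction 10.7.3.1 per the file headers (10.3.1.1 per the submitters' processing notes). The authors' series table holds log2 values, centred per probe, whose scaling no source used here gives, and was tried as an alternative.

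From the scanner tables, control and outlier spots were left out, log2 processed signals averaged per probe, and each array's 75th percentile subtracted. A probe well above background on at least 3 of 6 arrays was tested (26647 of 39429) by a two-sided test in R 4.3.3 (limma 3.58.1, functions lmFit and eBayes; files read by the package data.table, version 1.17.8). The replicate number was not a block. The code was tested on simulated data. P-values measure the spread between these samples, and 3 arrays per group limit the precision. Probe positions are mm9, from the scanner files; gene names were updated by accession through RefSeq (GRCm38.p6) for 26761 probes. A gene's value is that of its brightest tested probe.

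Genes and lists were chosen with earlier results of these data known. Named are all 10 genes, Zscan5b, the 2 genes of smallest p per role and up to 2 markers per list; others are stated as chosen after their values were seen. Alternatives covered background correction, scaling, the detection filter, array weights, the variance prior, the authors' table, a replicate block, the mean over a gene's probes and leaving out each array.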

Additional observations from a re-analysis of the deposited data

How the results depend on the processing

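Over the probe tests of the 10 genes under 15 alternatives each, 215 kept their direction and side of the threshold, 4 passed newly (both Etv4 probes and Etv5 without wild type replicate 2, Etv5 with array weights) and 6 changed sign. The sign changes came from leaving out 1 array: Spry4 (-0.08) was 0.52 without wild type replicate 1, 0.16 without wild type replicate 3 and 0.03 without knockout replicate 2 (range -0.93 to 0.52), Dusp6 (-0.21) ran from -0.75 to 0.14, the bright Otx2 probe (-0.17) from -0.35 to 0.02 and 1 Fgfr1 probe (-0.02) from -0.07 to 0.02. The number of these 15 probes called was 0 under all alternatives but array weights (1) and leaving out an array (0 to 3), and of the wider list 0 but for array weights (3) and leaving out an array (0 to 9). The median of the 10 genes ran from -0.55 to -0.08 when an array was left out, and 6 to 8 of the 10 genes read lower in the knockout. Over all probes 124 calls became 231 under median scaling (which moved the median of all probes to -0.07), 840 with array weights and 0 with normexp, no filter, detection on all 6 arrays or a trended and robust prior, where 5785, 6514, 5451 and 6198 probes had an unadjusted limma p below 0.05. Leaving out an array gave 0 to 2557 calls, with 0 without wild type replicate 3 or knockout replicate 1, 2 or 3 (unadjusted 4122, 4880, 3315 and 3229). Higher calls were 26.6% of all calls, 51.7% with array weights and 55.1% without wild type replicate 2. The causes were not tested. With a replicate block 0 probes were called (5152 unadjusted). The deviations of same-numbered arrays from their group means had correlations of 0.162, 0.232 and -0.144. Whether same-numbered samples are paired was not tested.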
